A study of Mus musculus with 9 samples.

Results

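The keratin, claudin and mucin genes are gene families known from epithelia, and many of their members belong to tissues other than the lining of the oviduct. They comprised 83 genes, 48 keratins, 23 claudins and 12 mucins, of the 19937 genes that a probe set with a single annotated symbol could name. A member was any gene with a symbol made of Krt or Cldn and a number, or of Muc, a number and at most further small letters, and where a gene had more than 1 probe set, that with the highest mean was taken. This rule used no difference between groups, but it was set with earlier results of these data known. RNA from oviducts of CD1 mice was measured on 9 Affymetrix arrays, 3 for each of 3 groups: sexually mature females in diestrus, sexually mature females in estrus, and sexually immature females of day 21. No animal was stimulated with hormones, and each array carried the pooled tissue of 5 animals, so an error describes the spread between pools. The sources used here give no age for the mature females. All values are log2 intensities after robust multi-array averaging (RMA), the authors' background correction, quantile normalization and summary of each probe set. A difference of 1 therefore means a doubling of intensity. Probes differ in how well they bind, so a level, or its place above or below an array median, does not rank genes by RNA.

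Keratins are the intermediate filament proteins of epithelial cells, and a filament is built of a type I and a type II partner. Simple epithelia such as that of the oviduct use Krt8 with Krt18 and Krt19, while Krt5 with Krt14 marks the basal layer of stratified epithelia and other members belong to skin, cornea and hair. Claudins are the membrane proteins that form the strands of tight junctions. Some seal the gap between cells and others, such as Cldn2, Cldn10 and Cldn15, form pores for ions or water. Mucins are large glycoproteins: Muc1, Muc4 and Muc16 are anchored in the apical membrane, and Muc2, Muc5ac, Muc5b, Muc6 and Muc19 are secreted and form gels. In estrus the cycle is near ovulation, and in diestrus corpora lutea secrete progesterone.

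Most of these genes stood low on the arrays. Of the 83 members, 21 lay above the median of all probe sets on each of the 9 arrays (25.3%, against 45.8% of all probe sets), 55 lay below it on every array and 7 lay on both sides. The array medians were between 8.85 and 8.90. No detection call was at hand, so a gene below the median was not shown to be above background, and little difference there says little about its RNA. Among the 6 keratins of simple epithelia, Krt7, Krt8, Krt18 and Krt19 were above the median throughout, and Krt20 and Krt23 were below it. Of 18 keratins of stratified epithelia 15 were below the median on every array, the basal Krt5 (8.13 to 8.39) and Krt14 (8.12 to 8.36) among them, and so were 18 of 20 keratins of hair and its root sheath. The exceptions in these groups were Krt12, Krt79 and Krt80, and Krt75 and Krt87. Krt12, known from the cornea, lay between 9.52 and 9.80 on the 9 arrays and showed no separation of the groups. Of the claudins, 6 of the 12 barrier-forming members (Cldn1, Cldn3, Cldn4, Cldn5, Cldn7 and Cldn8), 3 of 5 channel-forming members (Cldn2, Cldn10 and Cldn15), and Cldn12 and Cldn22 were above the median on all arrays. Among the mucins this held for Muc1 alone. Muc4 crossed the median, and all 5 gel-forming mucins lay below it on every array, between 7.74 and 8.60.

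**Figure D1:**
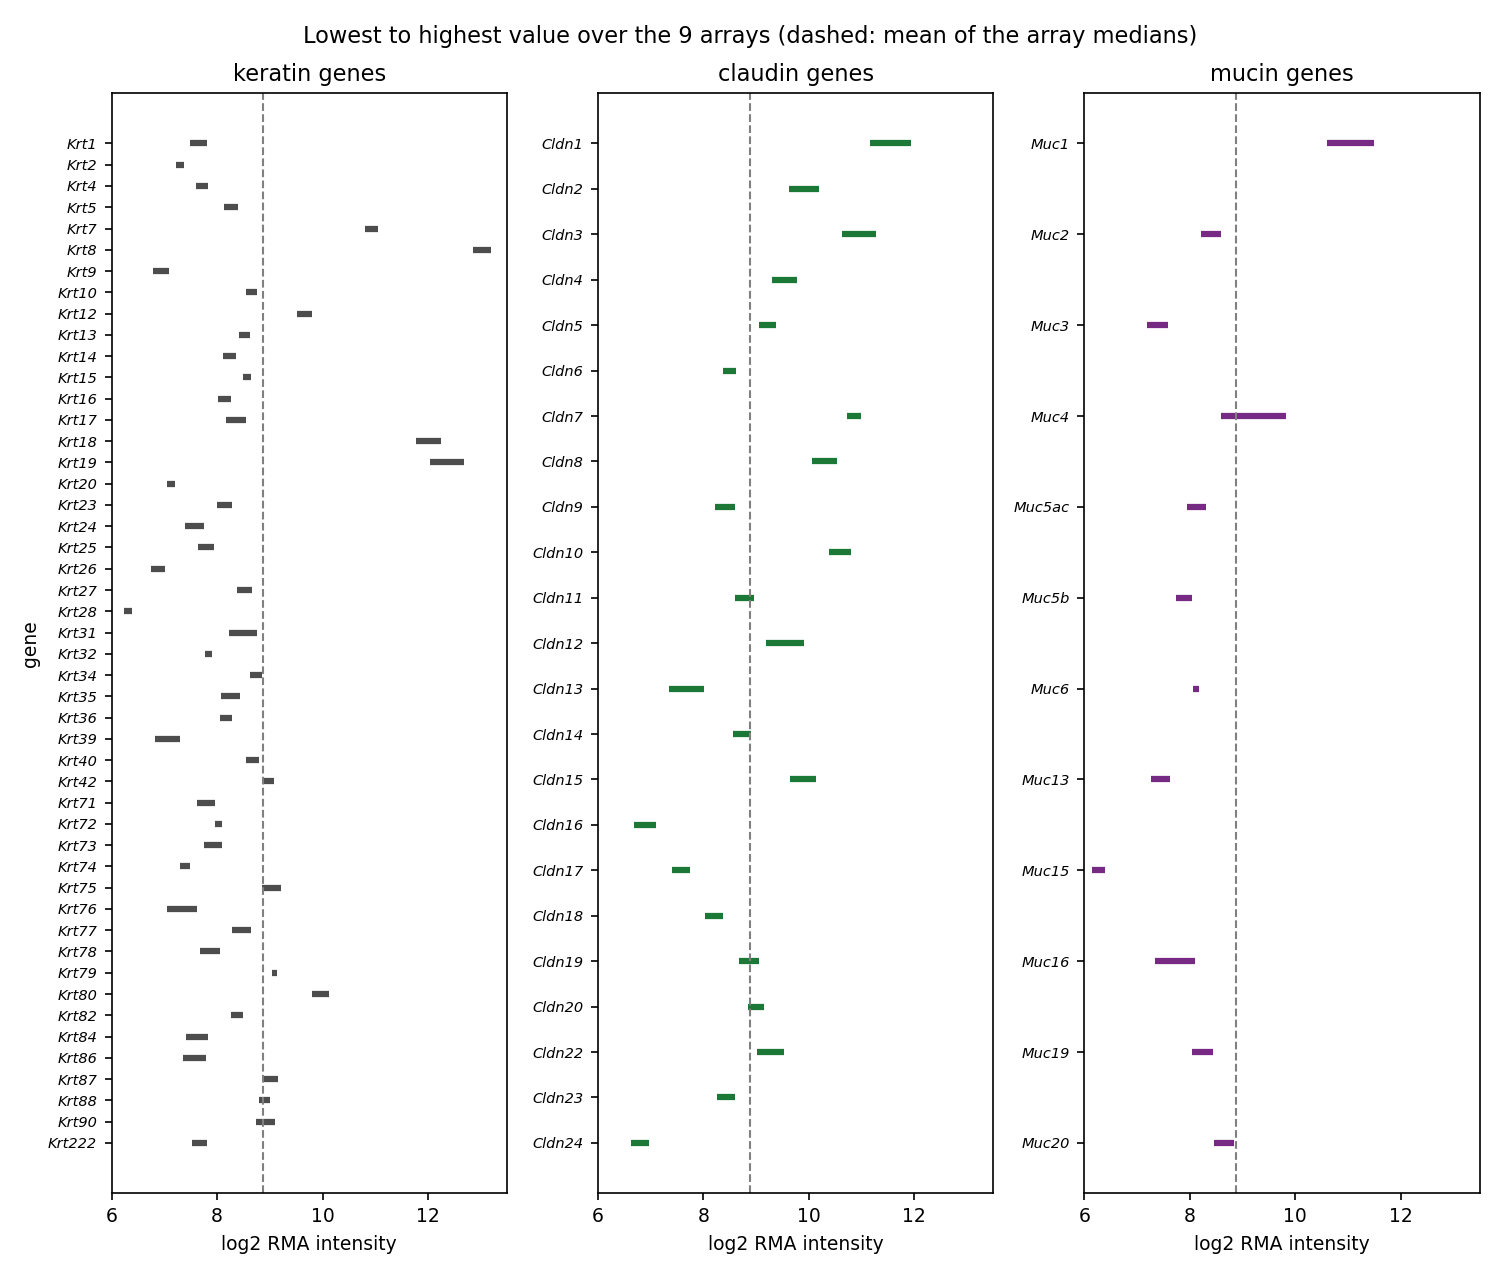
Each bar runs from the lowest to the highest log2 RMA intensity of a gene over the 9 arrays, and the dashed line is the mean of the array medians. Krt7, Krt8, Krt18 and Krt19 lie to the right of the line, the gel-forming mucins lie to its left, and Muc4 crosses it.

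Markers of oviduct epithelium were mostly, but not all, above the array medians. The pan-epithelial gene Epcam lay between 11.62 and 11.89, Pax8 of secretory cells between 11.76 and 12.23 and Foxj1 of ciliated cells between 10.98 and 11.67, and the 7 measured pan-epithelial markers averaged 11.51 to 11.65 in diestrus, 11.55 to 11.65 in estrus and 11.59 to 11.67 in immature oviduct. The 5 measured markers of secretory cells averaged 9.66 to 9.84 in diestrus, 9.71 to 9.78 in estrus and 9.65 to 9.71 in immature oviduct. Sult1b1 and Msx2 were below the median on every array. Of these 5, limma called Gpx3 higher in diestrus than in immature oviduct (adjusted p under 0.05), and 3 had lower means. The 9 ciliated markers averaged 11.23 to 11.40 in diestrus, 11.20 to 11.40 in estrus and 11.23 to 11.60 in immature oviduct. Against immature oviduct, 8 of the 9 had lower means in diestrus and all 9 in estrus. The median difference was -0.10 in each, and none was called. Of 12 measured markers of squamous epithelium 7 were below the median on every array, Trp63, Ivl and Lor among them, and the list averaged 8.24 to 8.30 in diestrus, 8.08 to 8.28 in estrus and 8.09 to 8.20 in immature oviduct. Markers of neighbouring tissues varied between pools. Diestrus 3 had the highest smooth muscle average (11.80, against 10.96 to 11.21 on the other 8 arrays), homeobox average of the posterior tract (8.78, against 8.11 to 8.35) and endothelial average (9.43, against 8.91 to 9.18). Diestrus 2 and immature 2 had the highest ovarian averages (9.10 and 8.89). Diestrus 3 followed with 8.42, and the other arrays had 7.90 to 8.06. Of 13 measured ovarian markers, limma called Star higher in diestrus than in immature oviduct (adjusted p under 0.05), where 5 had higher and 8 lower means. Against estrus, 12 of the 13 had higher means in diestrus and none was called. The 6 measured fat markers averaged 8.32 to 8.50 in diestrus, 8.35 to 8.54 in estrus and 8.46 to 8.94 in immature oviduct, highest on immature 1 and 2, with Adipoq and Lep below the median on every array. The 6 markers of mesothelium averaged 10.37 to 10.78 in diestrus, 10.38 to 10.56 in estrus and 10.50 to 10.63 in immature oviduct. Their average was highest on diestrus 2 and lowest on diestrus 3. On estrus 1, 36.1% of members had their highest value (23.2% of all probe sets), and on estrus 2, 30.1% had their lowest (17.7%). Of the 21 members above the median, 0 were highest on estrus 1 and 5 were lowest on estrus 2.

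The comparison of diestrus with immature oviduct asked how the luteal phase of the cycle differs from the oviduct before puberty. Cldn12 fell, and it was the 1 member of 83 that passed the test (1.20% of members, against 1.00% of the 28214 probe sets called in either direction at an adjusted p under 0.05, and 0.705% called lower). Keratins and mucins gave no call among 48 and 12 genes in limma. At an unadjusted p under 0.05 there were 4 members, Krt18, Cldn12, Cldn22 and Muc1, which is 4.82% of members against 13.4% of all probe sets. Groups did not overlap for 10 members, 12.0% against 18.4% of all probe sets. With array weights limma called Cldn12 and Cldn22, 2.41% against 4.57%. All 3 of these shares of members were below those of all probe sets, while the share with an adjusted p under 0.05 was not. Each share counts all 83 members, including the 55 below the median on every array. The 4 members with an unadjusted p under 0.05 were all among the 21 above it on every array. The median difference was 0.01 for keratins, 0.04 for claudins and 0.06 for mucins, against 0.00 over all genes with 1 symbol.

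Cldn12 encodes a claudin that lacks the usual PDZ-binding end of the family. Its values were 9.34, 9.19 and 9.30 in diestrus, 9.51, 9.61 and 9.34 in estrus, and 9.90, 9.71 and 9.67 in immature oviduct. Every diestrus pool lay below every immature pool, and the estrus pools lay between, with estrus 3 level with diestrus 1. Cldn12 averaged 9.28 ± 0.08 in diestrus and 9.76 ± 0.12 in immature oviduct (SD, n = 3 each), so that diestrus minus immature oviduct came to -0.48 ± 0.09 (SE) with an adjusted p of 0.0402 in limma. The intensity in diestrus was 0.716 times that in immature oviduct. In whole tissue, fewer cells of a type and less RNA per cell cannot be told apart. The difference stayed between -0.53 and -0.41 when single arrays were left out, but the call was lost without any 1 of the 3 diestrus or the 3 immature arrays, or without estrus 1 (adjusted p between 0.0505 and 0.147). Of the 6 fat markers 5 also had lower means in diestrus than in immature oviduct, as had 8 of the 9 ciliated markers. Cldn12 and the fat average were both highest on immature 1. The fat averages were 8.94, 8.77 and 8.46 on immature 1, 2 and 3, against 8.32 to 8.50 in diestrus. The ciliated averages were 11.23, 11.40 and 11.60 on immature 1, 2 and 3, against 11.23 to 11.40 in diestrus. The part of fat or of ciliated cells in the difference was not tested. The call was also lost with cyclic loess (adjusted p = 0.0526), with only the groups compared (0.0770) and without the arrays of high ovarian values, diestrus 2 and immature 2 (0.309), where the difference was -0.46.

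The bases before the start of Cldn12 are shown because it is the called member, and those of Muc1 because it differed most between the stages of the cycle. Both are the 250 bases before the most upstream start listed by RefSeq in build GRCm38.p6, at chr5:5514977-5515226 on the minus strand for Cldn12 and chr3:89228806-89229055 on the plus strand for Muc1, written 5′ to 3′ along the gene. Capitals mark matches on either strand to GGTCA (an arm of the estrogen response element), TGTTCT (an arm of the progesterone response element), GGGCGG (GC box) and TATAAA (the core promoter element at which the TATA-binding protein sits). The whole estrogen response element was searched as well, as GGTCA followed after 3 bases by its reverse complement, so that it overlaps the search for its arm.
Cldn12: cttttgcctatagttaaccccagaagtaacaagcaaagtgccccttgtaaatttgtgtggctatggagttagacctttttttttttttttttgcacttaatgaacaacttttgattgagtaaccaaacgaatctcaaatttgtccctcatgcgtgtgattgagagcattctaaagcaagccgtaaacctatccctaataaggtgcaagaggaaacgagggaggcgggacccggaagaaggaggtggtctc
Muc1: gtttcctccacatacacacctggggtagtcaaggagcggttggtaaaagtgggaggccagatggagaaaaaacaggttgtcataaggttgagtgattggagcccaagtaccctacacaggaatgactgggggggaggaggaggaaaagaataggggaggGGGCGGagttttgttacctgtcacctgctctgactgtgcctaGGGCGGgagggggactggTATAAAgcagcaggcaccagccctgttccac
The Muc1 window held TATAAA, starting 31 bases before the start of the gene, and GGGCGG starting 49 and 91 bases before it. The matches did not overlap each other. The Cldn12 window held none of the 5 motifs, which says only that these letters are not in this stretch. Over 27025 genes with such a window, TATAAA was present in 13.0%, GGGCGG in 33.0%, GGTCA in 34.9%, TGTTCT in 16.1% and the whole estrogen response element in 0.0629%. Of 62 members with a window, TATAAA was present in 32.3%, GGGCGG in 17.7%, GGTCA in 38.7% and TGTTCT in 19.4%, and the whole element in 0. These are matches of letters, not sites of binding.

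Among the other claudins, Cldn22 had 9.27, 9.01 and 9.01 in diestrus, 9.30, 9.30 and 9.36 in estrus and 9.53, 9.33 and 9.38 in immature oviduct. All diestrus pools were below all others, and the difference of -0.32 ± 0.08 from immature oviduct did not pass the test (adjusted p = 0.124). Its neighbour in the genome, Cldn24, differed by -0.10 at values below the median of every array. The pore-forming Cldn2 had 10.07, 10.07 and 9.62 in diestrus, against 10.14, 10.15 and 10.19 in immature oviduct. The groups did not overlap, but diestrus 3 made most of the difference of -0.24 ± 0.12, which was -0.09 without it. Of the sealing claudins, Cldn1, Cldn3, Cldn4, Cldn5, Cldn7 and Cldn8 differed by 0.04, -0.16, 0.05, 0.07, -0.06 and 0.12, each with an SE of 0.06 to 0.16. Single arrays turned some of these: with 1 array left out Cldn1 ran from -0.13 to 0.15, Cldn3 from -0.28 to 0.03 and Cldn4 from -0.04 to 0.19. The channel-forming Cldn10 and Cldn15 each differed by 0.02, with ranges of -0.02 to 0.08 and -0.07 to 0.11 when 1 array was left out, and Cldn20 by 0.13 ± 0.08.

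The keratins of simple epithelium gave small differences and no call. Krt18, the type I partner of Krt8, had 12.02, 12.24 and 12.02 in diestrus, 11.82, 11.88 and 11.92 in estrus and 11.87, 11.77 and 12.00 in immature oviduct. The diestrus pools were the 3 highest of the 9, just above immature 3. Krt18 differed by 0.21 ± 0.08 from immature oviduct (adjusted p = 0.298), by 0.14 without diestrus 2, and by 0.08 without diestrus 2 and immature 2, the arrays of high ovarian values. The mesothelial average was also highest on diestrus 2 (10.78). The part of ovarian or mesothelial RNA in the difference of Krt18 was not tested. Krt8, its neighbour in the genome, had 13.00, 13.08 and 12.92 in diestrus and 13.02, 13.01 and 13.20 in immature oviduct, a difference of -0.08 ± 0.08. Krt19 had 12.55, 12.43 and 12.04 in diestrus and 12.69, 12.42 and 12.61 in immature oviduct. Its difference of -0.23 ± 0.13 rested on diestrus 3 and was -0.08 without that array. Krt7 differed by -0.03 ± 0.08, and Krt80, a type II keratin, by -0.12 ± 0.07. Krt5 and Krt14 differed by 0.01 ± 0.08 and -0.03 ± 0.08, and Krt75, Krt79 and Krt87 by 0.08, 0.05 and 0.07. Krt42 and Krt88, which crossed the array medians, differed by -0.03 and 0.01. Over all 48 keratins the differences ran from -0.23 to 0.21.

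Muc1 had 11.23, 11.10 and 11.49 in diestrus, 10.78, 10.69 and 10.60 in estrus, and 10.91, 10.98 and 11 in immature oviduct. The 3 groups did not overlap: diestrus was highest, immature oviduct in the middle and estrus lowest. Between diestrus and immature oviduct Muc1 differed by 0.31 ± 0.09 (adjusted p = 0.185), and by 0.20 without diestrus 3. Muc4 had 8.89, 8.68 and 9.82 in diestrus, 8.90, 8.60 and 8.62 in estrus and 9.11, 9.27 and 9.36 in immature oviduct. Diestrus 3 was the highest of the 9 arrays and the other diestrus pools lay below all immature pools, so the difference of -0.12 ± 0.24 became -0.46 without diestrus 3. Muc20, whose annotation overlaps Muc4, differed by 0.05. Muc16 had 8.10, 8.05 and 7.34 in diestrus and 8.08, 7.74 and 7.75 in immature oviduct, with the lowest value again on diestrus 3. All 5 gel-forming mucins had higher means in diestrus, by 0.02 to 0.14, below the median of every array and with no call.

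**Figure D2:**
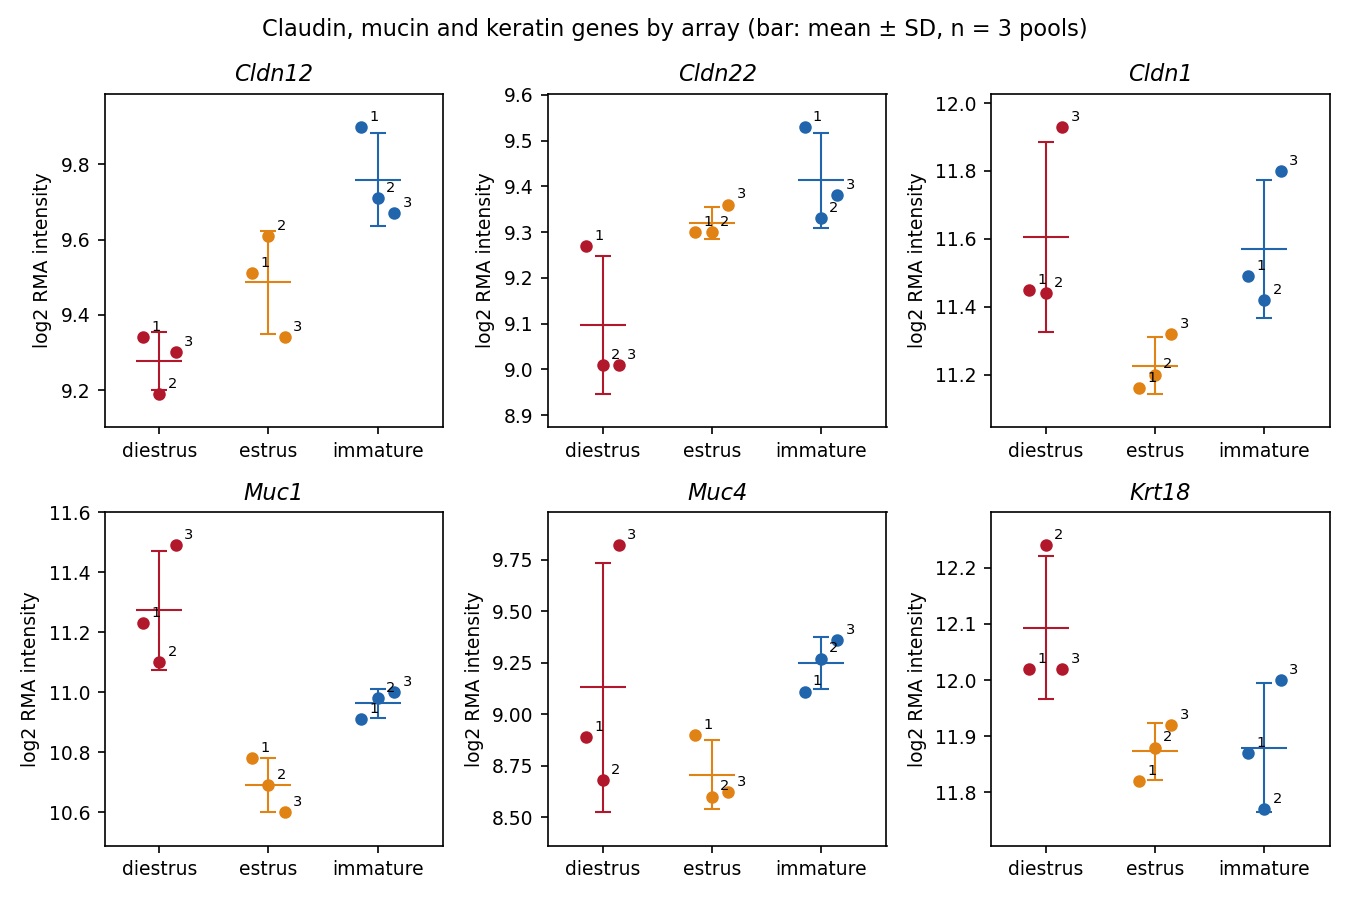
Points are the log2 RMA intensities of single arrays, numbered by replicate, for 6 genes in diestrus, estrus and immature oviduct, and bars are the mean ± SD of 3 pools. The y axes differ between genes and do not start at 0. The 3 groups of Muc1 do not overlap, Cldn12 is lowest in diestrus, and diestrus 3 is the highest array for Cldn1, Muc1 and Muc4.

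The comparison of estrus with immature oviduct asked the same for the ovulatory phase. None of the 83 members passed the test in limma, where 0.0851% of all probe sets were called, and 5 members had an unadjusted p under 0.05 (6.02%, against 6.52% of all probe sets): Krt80, Cldn1, Cldn10, Cldn12 and Muc1. With array weights, which gave estrus 3 a weight of 8.16, limma called Cldn10, Cldn12 and Muc1, 3.61% of members against 3.63% of all probe sets. Estrus lay wholly below immature oviduct for 8 members, which is 9.64% against 6.62% of all probe sets (9.80% in either direction), and wholly above it for 0 members, against 3.19%. These 8 were Krt80, Cldn1, Cldn2, Cldn4, Cldn5, Cldn12, Muc1 and Muc4. The median difference was 0.01 for keratins, 0.00 for claudins and 0.03 for mucins. Members above the median of all values on at least 3 arrays were also taken, as a description. Their median was -0.02 for 12 keratins, -0.11 for 12 claudins and -0.41 for the 2 mucins, Muc1 and Muc4. Muc4 had its lowest mean in estrus (8.70) and entered this set mostly through the other groups. The mucin median of -0.41 is therefore no support for a difference.

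Cldn1, which seals the junctions of many epithelia, had 11.16, 11.20 and 11.32 in estrus, against 11.49, 11.42 and 11.80 in immature oviduct. The groups did not overlap, and the difference was -0.35 ± 0.14 (adjusted p = 0.716), or -0.23 without immature 3. The membrane mucin Muc4 differed by -0.54 ± 0.24, with every estrus pool below every immature pool (adjusted p = 0.766). For Muc1 the difference was -0.28 ± 0.09 (adjusted p = 0.598) and for Cldn12 -0.27 ± 0.09 (adjusted p = 0.542). Cldn10, whose protein forms ion channels in the junction, had 10.58, 10.72 and 10.79 in estrus and 10.61, 10.39 and 10.43 in immature oviduct. Its difference of 0.22 ± 0.08 was the highest among claudins, and the groups overlapped at immature 1. Krt80 had 9.80, 9.82 and 9.89 in estrus and 10.01, 9.99 and 10.13 in immature oviduct, with no overlap and a difference of -0.21 ± 0.07 (adjusted p = 0.540). Krt8, Krt18, Krt19 and Krt7 differed by -0.16, -0.01, -0.19 and -0.04, with SE between 0.08 and 0.13. Cldn3 and Cldn7 differed by -0.17 ± 0.16 and 0.00 ± 0.08, and Muc16 by -0.13 ± 0.20.

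The comparison of diestrus with estrus asked which genes follow the cycle. No member passed the test in limma, where 0.159% of all probe sets were called, and 7 had an unadjusted p under 0.05 (8.43%, against 9.33% of all probe sets): Krt18, Cldn1, Cldn5 and Muc1 with higher means in diestrus, and Cldn10, Cldn12 and Cldn22 with lower means. Groups did not overlap for 9 members, 10.8% against 11.8% of all probe sets. With array weights limma called 7 members, 8.43% against 11.8% of all probe sets: Krt18, Krt75, Cldn4, Cldn8 and Muc1 higher, and Cldn10 and Cldn22 lower. The median difference was 0.00 for keratins, -0.01 for claudins and 0.01 for mucins, against -0.01 over all genes with 1 symbol. Over the members above the median of all values on at least 3 arrays it was 0.02 for keratins, 0.04 for claudins and 0.51 for Muc1 and Muc4. As Muc4 entered this set mostly through groups other than estrus, the 0.51 is no support for a difference.

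Muc1, whose protein lines the apical surface as a barrier glycoprotein, had the highest difference of the 83 members. It averaged 11.27 ± 0.20 in diestrus and 10.69 ± 0.09 in estrus (SD, n = 3 each), 1.50 times the intensity, and diestrus minus estrus was 0.59 ± 0.09 (SE), short of the threshold at an adjusted p of 0.0580 in limma. The adjusted p was 0.0315 with probe sets of low intensity left out and 0.0374 with only probe sets of 1 symbol, where it passed. It was 0.224 with only the groups compared, 0.247 without the 2 arrays of high ovarian values, 0.675 without these and diestrus 3, and 0.0929 to 0.182 without any other single array than diestrus 3. Muc1 was highest on diestrus 3, the pool with the highest muscle and homeobox averages and an ovarian average (8.42) above every estrus pool. Without that array the difference was 0.48 ± 0.07 (adjusted p = 0.0448). Muc4 differed by 0.43 ± 0.24, and by 0.08 without diestrus 3. Cldn1 differed by 0.38 ± 0.14 with no overlap (adjusted p = 0.398), and by 0.22 without diestrus 3. Cldn5, the claudin of endothelium, had 9.35, 9.24 and 9.38 in diestrus and 9.21, 9.06 and 9.19 in estrus. The groups did not overlap, and the difference was 0.17 ± 0.06 (adjusted p = 0.380). The 9 endothelial markers, summed up by their mean, lay between 8.96 and 9.43 in diestrus and between 8.91 and 9.02 in estrus, with Erg below the median on every array. All 9 had higher means in diestrus, and their part in the difference of Cldn5 was not tested.

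Krt18 differed by 0.22 ± 0.08 between diestrus and estrus with no overlap (adjusted p = 0.407), and by 0.14 without diestrus 2. Krt8 differed by 0.08 ± 0.08, Krt19 by -0.04 ± 0.13 (0.11 without diestrus 3), Krt7 by 0.01 ± 0.08 and Krt80 by 0.08 ± 0.07. Cldn10 and Cldn22 differed by -0.20 ± 0.08 and -0.23 ± 0.08, in each case with all diestrus pools below all estrus pools (adjusted p = 0.449 and 0.391). Cldn4, Cldn8 and Cldn15 differed by 0.17, 0.17 and 0.18 with overlap between the groups. Cldn8 differed by 0.05 without estrus 3, and Cldn15 by 0.08 without estrus 1. Cldn4 had 9.72, 9.77 and 9.31 in diestrus and 9.49, 9.40 and 9.40 in estrus, so its difference was 0.32 without diestrus 3.

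**Figure D3:**
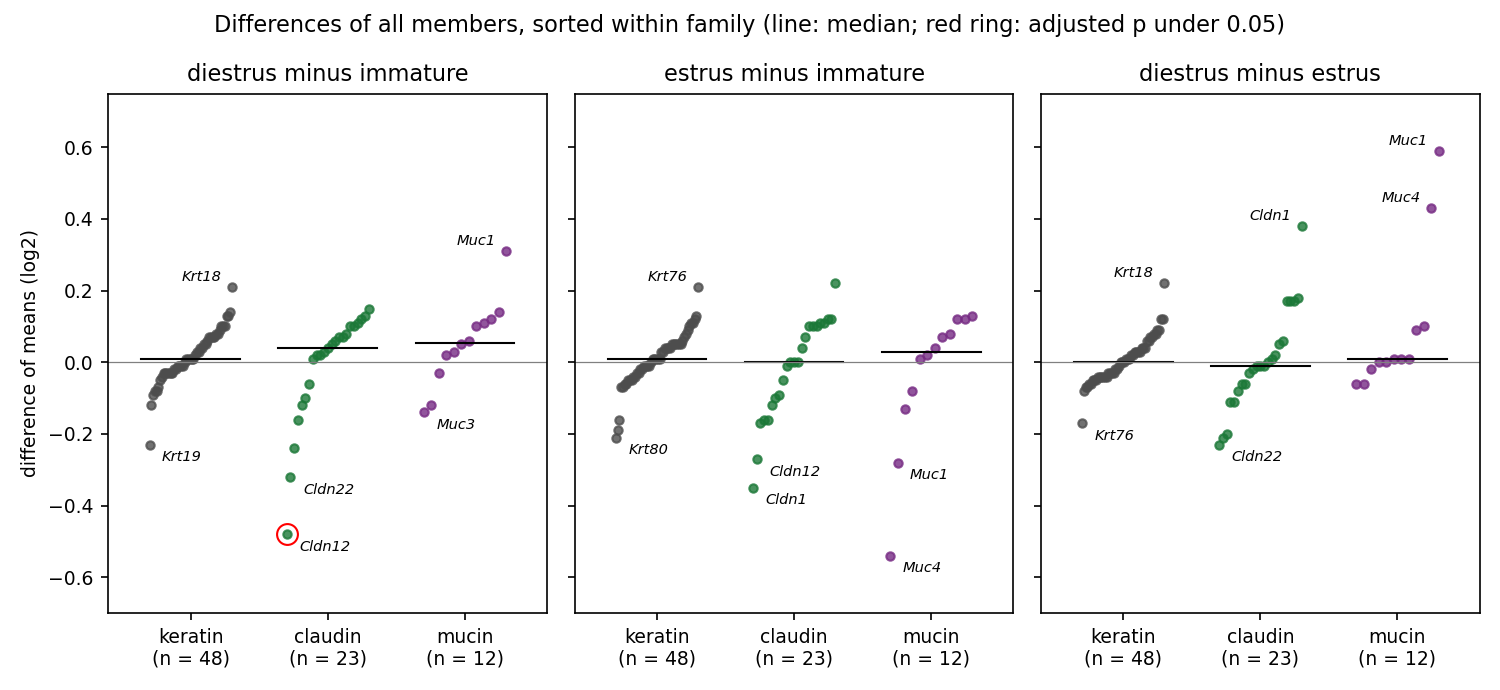
Each point is the log2 difference of group means of 1 gene, sorted within its family, for the 3 comparisons, with a line at the family median and a red ring at an adjusted p under 0.05. Keratins stay within -0.23 and 0.22, Cldn12 carries the single ring, and Muc1 reaches 0.59 between diestrus and estrus.

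Among the 21 members above the median on all arrays, diestrus 3 held the highest value of Krt7, Cldn1, Cldn5 and Muc1 and the lowest of Krt19, Cldn2, Cldn3 and Cldn4. Diestrus 2 held as many, the highest of Krt18, Krt75, Krt79 and Cldn4 and the lowest of Krt12, Cldn10, Cldn12 and Cldn22. Cldn3 had 11.25, 11.15 and 10.63 in diestrus, and its neighbour in the genome, Cldn4, was likewise lowest on diestrus 3. Myh11 of smooth muscle stood at 12.33 and Hoxd10 at 10.21 on diestrus 3, against at most 11.42 and 9.00 on the others. The mesothelial average was lowest on diestrus 3 (10.37). Whether the share of another tract region or of mesothelium in this pool took part in these values was not tested.

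**Figure D4:**
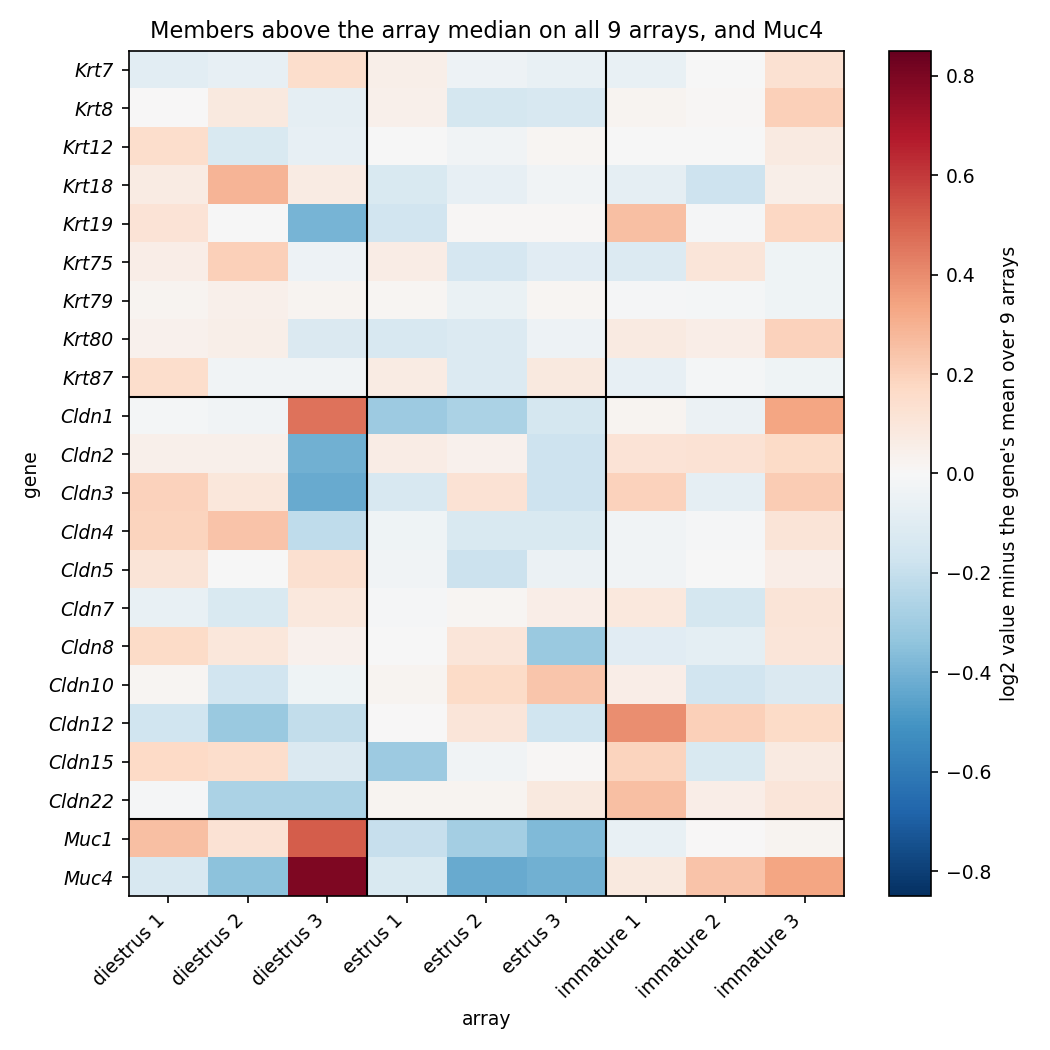
Colours give the log2 value of each array minus the mean of the gene over the 9 arrays, for the 21 members above the array median throughout and for Muc4. Muc1 runs high in diestrus and low in estrus, Cldn12 runs low in diestrus and high in immature oviduct, and diestrus 3 differs from the other diestrus pools for Krt19, Cldn1, Cldn2, Cldn3 and Muc4.

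The genes that work with these families were described from lists that hold no member. Of 21 measured tight junction partners, 0 passed the test in limma in any comparison. The junction adhesion gene Jam2 had 12.94, 13.15 and 12.69 in diestrus, 12.33, 12.90 and 12.13 in estrus and 12.05, 12.21 and 12.21 in immature oviduct. Diestrus lay wholly above immature oviduct, with a difference of 0.77 ± 0.18 (adjusted p = 0.0950), while F11r, which encodes another junction adhesion protein, differed by -0.01 ± 0.06. None of 18 adherens junction and desmosome genes passed in any comparison, and Cdh1 and Ctnnb1, the core of adherens junctions, each differed by 0.02 ± 0.06 between diestrus and immature oviduct. Of 13 other intermediate filament and linker genes, Nes fell in diestrus against immature oviduct by 0.35 ± 0.07 (adjusted p = 0.0479), a call lost without any single array (adjusted p between 0.0643 and 0.158), with only the groups compared (0.0995), and without the 2 arrays of high ovarian values (0.289) or these and diestrus 3 (0.473). Vim, the filament of mesenchymal cells, differed by -0.16 ± 0.06 (adjusted p = 0.250), and Krtcap2 by 0.00 ± 0.08. Of 20 genes of mucus packaging and glycosylation, Galnt3 fell. This enzyme adds the first sugar of mucin O-glycans, and it had 9.87, 9.90 and 9.91 in diestrus, 10.40, 10.26 and 10.23 in estrus and 10.43, 10.30 and 10.22 in immature oviduct. Every diestrus pool was below all 6 others, with a difference of -0.43 ± 0.07 from immature oviduct (adjusted p = 0.0293) and -0.41 ± 0.07 from estrus (adjusted p = 0.0685). The first call was lost without diestrus 1 or 2 or any immature array (adjusted p between 0.0646 and 0.103), with quantile normalization again (0.0668), cyclic loess (0.0639) or only the groups compared (0.0645), and without the 2 arrays of high ovarian values (0.280) or these and diestrus 3 (0.430). Agr2, a chaperone of mucin folding, differed by 0.35 ± 0.11 from immature oviduct (adjusted p = 0.199), and Gcnt3, a branching enzyme of mucin glycans, by -0.15 ± 0.15. None of 16 epithelial transcription factors and splicing regulators passed in any comparison, with Ehf at 0.11 ± 0.08 and Esrp1 at -0.07 ± 0.10 between diestrus and immature oviduct. Of all probe sets, limma called 1.00% in diestrus against immature oviduct. In estrus against immature oviduct and in diestrus against estrus it called 0.0851% and 0.159% of all probe sets and 0 genes of these 5 lists. At such shares, 0 calls among so few genes say little. All 3 comparisons share groups of arrays, so their counts are not independent.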

How the data were processed

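The authors deposited log2 intensities for 28214 probe sets on 9 arrays, which they made with RMA in Affymetrix Expression Console, per the submitters' processing notes. The sources used here give neither versions nor the log base, which was taken from the range of the values. Symbols came from the platform's annotation: 21640 probe sets had 1 symbol, 1321 several and 5253 none. Of 84 member probe sets 83 stood for a gene, as Muc19 had more than 1. A probe set shared by Dzip1 and Cldn10 was not used. By Entrez ID 82 members matched RefSeq GRCm38.p6, and Muc19 did not. Neighbours were read from the order of protein-coding genes there.

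A single model of the 3 groups was fitted with limma 3.58.1 in R 4.3.3 (lmFit and eBayes, two-sided, 6 residual and 3.60 prior degrees of freedom), with Benjamini-Hochberg adjustment over all probe sets and a threshold of 0.05. No filter on low values was used. Members, lists and alternatives were chosen with earlier results of these data known. Named were called members, up to 3 with the largest rise and fall per family and comparison above the median of all values, and a fixed set of simple and basal keratins, claudins and membrane mucins. Of other lists, called genes and the 2 with the highest means were named. The fit was tested on simulated data. Alternatives changed the filter, probe set choice, normalization, variance model, array weights, replicate block, groups fitted, threshold and arrays used. Arrays correlated at 0.992 to 0.996 within and 0.990 to 0.995 between groups. Figures used Python 3.11.15 and matplotlib 3.10.9.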

Additional observations from a re-analysis of the deposited data

How the results depend on the processing

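Precision is limited by 3 pools in each group. The 55 members below the array medians were not shown to be above background, which limits what they can show. The member called in diestrus against immature oviduct, Cldn12, was not called (0 members) with the replicate number as a block (adjusted p = 0.0652), cyclic loess, only the groups compared, the 2 arrays of high ovarian values left out, these and diestrus 3 left out, at least 2-fold, or an adjusted p under 0.01, and 0 to 1 member was called with single arrays left out. Array weights gave 2 members there, 3 in estrus against immature oviduct and 7 in diestrus against estrus, where main counts were 0, and an intensity filter or probe sets of 1 symbol gave 1, Muc1. Leaving out single arrays gave 0 members for estrus against immature oviduct and 0 to 1 for diestrus against estrus. The median of mucins was 0.16 in diestrus against immature oviduct without the 3 arrays of high ovarian or muscle values, where it was 0.06 with all. Among members above the median of all values it was -0.41 in estrus against immature oviduct and 0.51 in diestrus against estrus. That of claudins was -0.11 in estrus against immature oviduct. Fewer genes entered these, and Muc4 entered mostly through groups other than estrus, so the mucin medians are no support for a difference. The block on the replicate number moved all probe sets called to 121 for diestrus against immature oviduct, 4 for estrus against immature oviduct and 13 for diestrus against estrus, and 1 of 9 arrays correlated best with its own number, while deviations of same-numbered arrays correlated at -0.294 to 0.169, so the numbers did not pair the arrays. With this block the adjusted p was 0.0933 for Nes in diestrus against immature oviduct and 0.110 for Muc1 in diestrus against estrus. Over all probe sets, diestrus against immature oviduct gave 282 calls, 83 higher and 199 lower, and 1288 with array weights, 85 with only the groups compared, 10 and 3 without the 2 or 3 arrays named, 28 at 2-fold, 31 at an adjusted p under 0.01, 82 higher and 123 lower with cyclic loess, and 41 to 533 with single arrays left out. Estrus against immature oviduct gave 24, 9 higher and 15 lower, and 12 with probe sets of 1 symbol, 5 with cyclic loess (1 higher and 4 lower), 5 higher and 18 lower with median centring, 1023 with array weights, 2 without the 2 or 3 arrays, 7 at 2-fold, 2 at an adjusted p under 0.01, and 1 to 95 with single arrays left out. Diestrus against estrus gave 45, 19 higher and 26 lower, and 129 with the intensity filter, 91 with probe sets of 1 symbol, 3331 with array weights, 0 with only the groups compared or without the 2 or 3 arrays, 3 at 2-fold, 1 at an adjusted p under 0.01, 32 higher and 27 lower with quantile normalization again, 32 higher and 28 lower with cyclic loess, and 1 to 105 with single arrays left out. No named member reversed a call. The causes were not tested.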
